A study of Mus musculus with 5 samples.

Results

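The genes examined here encode the globin chains of mouse haemoglobin, together with Ahsp, which encodes the chaperone of free alpha chains. They were picked by gene symbol, with earlier results of these data known. The symbols are 4 adult globins (Hba-a1, Hba-a2, Hbb-bs and Hbb-bt), 3 embryonic globins (Hba-x, Hbb-y and Hbb-bh1) and Ahsp. Of these 8 symbols, 7 had an entry among the 54113 named entries of the count table, and Ahsp was not analysed here. The 5 libraries are labelled as CRC tumours, which MC-38 cells, a mouse colon carcinoma line, formed in C57BL/6 mice. Total RNA was sequenced in 3 libraries from mice kept at 30 °C, which is thermoneutral for mice, and in 2 libraries from mice kept at 4 °C, each for 2 weeks. The samples carry no other treatment or engineered allele in the labels, which give neither age nor sex nor a date of library preparation. The study describes the samples as biological samples, and p-values measure the spread between them.

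Adult haemoglobin is built from alpha and beta chains, each holding a haem group, and is the main protein of red cells. Erythroblasts transcribe the globin genes under transcription factors such as GATA1 and KLF1, and reticulocytes, which have lost their nucleus, still hold globin mRNA. In mice, the embryonic chains are made by the primitive red cells of the yolk sac and give way to the adult chains before birth. Adult mice form red cells in the bone marrow and the spleen. In bulk tissue, fewer cells of a type and less RNA per cell cannot be told apart.

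Alpha-like genes lie together on chromosome 11 of GRCm38 and beta-like genes on chromosome 7. In the GENCODE annotation, Hba-x spans chr11:32276400-32278116, Hba-a1 chr11:32283511-32284465 and Hba-a2 chr11:32296489-32297298, all on the plus strand. On the minus strand of chromosome 7, Hbb-bt spans chr7:103812524-103813996, Hbb-bs chr7:103826534-103828096, Hbb-bh1 chr7:103841637-103843164 and Hbb-y chr7:103851749-103853216. Each main transcript has 3 exons. Members of an adult pair are close to copies of each other. Over 426 coding bases without the stop codon, Hba-a1 and Hba-a2 differ at 1 base, and over 441 coding bases Hbb-bs and Hbb-bt differ at 1 base as well. Counted from 1 at the A of the start codon and written from the first gene to the second, these differences are C381T for the alpha pair and C417T for the beta pair. The stretches of 60 coding bases that end at these positions are given 5′ to 3′ to show how little sequence tells the copies apart, with the differing base in capitals.
Hba-a1: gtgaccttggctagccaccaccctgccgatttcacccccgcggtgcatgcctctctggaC
Hba-a2: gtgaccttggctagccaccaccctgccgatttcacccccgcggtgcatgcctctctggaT
Hbb-bs: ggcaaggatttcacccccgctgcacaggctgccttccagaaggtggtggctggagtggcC
Hbb-bt: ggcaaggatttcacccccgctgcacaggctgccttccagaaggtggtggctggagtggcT
The untranslated regions hold most of the remaining differences. Of all 100-base windows of the main Hba-a2 transcript, 74.5% also occur in that of Hba-a1, and 56.5% of those of Hba-a1 occur in Hba-a2. For Hbb-bt and Hbb-bs these shares were 54.8% and 62.6%. How reads that fit both copies were counted is not given in the sources used here, so the split within a pair is uncertain and the sum over a pair is the firmer value. The embryonic genes are further away, with 61.7% of coding bases identical between Hba-x and Hba-a1, 74.4% between Hbb-y and Hbb-bs and 73.9% between Hbb-bh1 and Hbb-bs.

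Promoters of the globin genes carry short motifs that bind known factors, among them the CACCC element read by KLF1 and the CCAAT box. The 110 bases upstream of the RefSeq start are shown for the 6 members that have a promoter entry (GRCm38.p6, 5′ to 3′ on the strand of the gene). Capitals mark matches on either strand to CCNCNCCC, a KLF1 consensus, to CCAAT, to the GATA motif AGATAA or to ATAAAA, of which the last pair can overlap.
Hba-a1, chr11:32283562-32283671, plus strand: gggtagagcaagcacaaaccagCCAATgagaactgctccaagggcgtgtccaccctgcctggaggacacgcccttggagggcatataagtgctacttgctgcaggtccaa
Hba-a2, chr11:32296382-32296491, plus strand: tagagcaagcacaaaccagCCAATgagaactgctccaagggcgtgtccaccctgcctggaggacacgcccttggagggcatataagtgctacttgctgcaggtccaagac
Hbb-bs, chr7:103827929-103828038, minus strand: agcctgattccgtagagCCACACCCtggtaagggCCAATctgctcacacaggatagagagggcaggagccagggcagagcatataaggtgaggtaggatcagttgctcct
Hbb-bt, chr7:103813924-103814033, minus strand: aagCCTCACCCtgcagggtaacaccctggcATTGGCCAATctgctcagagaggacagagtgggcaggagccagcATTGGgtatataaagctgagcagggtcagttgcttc
Hba-x, chr11:32276490-32276599, plus strand: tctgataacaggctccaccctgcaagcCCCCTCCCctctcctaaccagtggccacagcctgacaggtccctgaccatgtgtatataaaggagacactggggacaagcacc
Hbb-y, chr7:103853208-103853317, minus strand: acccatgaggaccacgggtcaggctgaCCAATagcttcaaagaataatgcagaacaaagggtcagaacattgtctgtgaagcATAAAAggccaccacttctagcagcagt
CCAAT stood in all 4 adult promoters and in the embryonic Hbb-y, between 75 and 91 bases upstream in the direction of the gene, and 20.2% of 32851 mouse promoters hold it in this window. CCNCNCCC stood in Hbb-bs, 93 bases upstream, in Hbb-bt, 107 bases upstream, and in Hba-x, 83 bases upstream, against 33.1% of all promoters. ATAAAA was found 28 bases upstream in Hbb-y and in 7.68% of all promoters, and AGATAA in none of the 6 windows and in 3.99% of all promoters. The windows of Hba-a1 and Hba-a2 share the same run of bases, offset by the annotated start. These matches describe the letters and were not tested as binding sites.

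Between 16191708 and 20320525 counts on named genes were available per library. The library 30 °C 2 stands apart, because 26 genes of pancreatic acinar cells took 27.5% of its counts, against 0.271% in 4 °C 2 and at most 0.00841% in the other 3 libraries. In CPM (the count divided by the library total and multiplied by 1000000), every other gene of 30 °C 2 is therefore read low, and values without this library are given beside the results. The label of a carcinoma was read against 11 epithelial genes, which summed to between 21.7 and 133 CPM at 30 °C and 19.4 and 93.4 CPM at 4 °C. Of these 11 genes, 6 had more than 3 counts in every library and none was at 0 in all 5. The keratin gene Krt19 was at 0 in 30 °C 3 and 4 °C 1. Other genes of the list were present: Epcam had 7.91 to 11.4 CPM in every library. Krt8 had 36.3, 39.6 and 4.63 CPM at 30 °C and 3.17 and 59.7 CPM at 4 °C. B cell genes summed to 1428 CPM or more in each library and red pulp macrophage genes to 1405 CPM or more. Tlx1, Nkx2-5 and Tcf21, transcription factors of the splenic mesenchyme, were above 3 counts in every library, with Tcf21 at 15.2 to 57.8 CPM. Read by the sums of these lists and by the splenic factors, the markers go against the carcinoma label in both groups. The samples are therefore called libraries here. What the material held besides was not tested. All 7 epithelial genes tested had negative log2 fold changes (median −1.10), but without 30 °C 2 it was 2 of 6, with a median of 0.34.

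The adult globins were among the more abundant genes of all 5 libraries, with ranks from 1 (Hbb-bs) to 142 (Hba-a2 in 30 °C 3) among the named entries. Summed over the 4 adult genes they made up 2.49%, 2.76% and 1.33% of the counts in the 30 °C libraries 1, 2 and 3, and 3.29% and 3.96% in the 4 °C libraries 1 and 2. The means were 2.19% ± 0.759 (SD, n = 3) and 3.63% ± 0.472 (SD, n = 2), a ratio of 1.65. Both libraries at 4 °C lay above all 3 at 30 °C. The 95% Wilson intervals were narrow (2.75% to 2.76% in 30 °C 2, 3.29% to 3.30% in 4 °C 1) and cover counting error only, since reads copied by PCR were not traced to single molecules. No p is given for a sum over these genes.

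Hbb-bs, the beta-s chain of the C57BL/6 haplotype, was the most abundant gene of 30 °C 1 and of both libraries at 4 °C, the 3rd in 30 °C 3 and the 9th in 30 °C 2. Its level was 12841, 14276 and 6567 CPM in the 30 °C libraries 1, 2 and 3, and 16101 and 19398 CPM in the 4 °C libraries. The groups did not overlap in CPM, and 30 °C 3 was lowest. Among the 16133 genes tested, 11% had higher CPM in both 4 °C libraries than in any library at 30 °C. The log2 fold change of Hbb-bs in the quasi-likelihood test of edgeR was 0.44 (standard error, SE, 0.47, adjusted p = 0.88), so the difference was within the spread between libraries. Hbb-bt, the beta-t chain, had 3623, 4067 and 1891 CPM at 30 °C and 5151 and 6163 CPM at 4 °C. Its order of libraries was the same as that of Hbb-bs, again with no overlap, and its log2 fold change was 0.61 (SE 0.46, adjusted p = 0.85 from edgeR).

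Hba-a1, an alpha chain, had 7082, 8029 and 4150 CPM in the 30 °C libraries and 9744 and 13187 CPM in the 4 °C libraries. The groups did not overlap, and the log2 fold change was 0.63 (SE 0.44, adjusted p = 0.83 from edgeR). Hba-a2, the second alpha copy, had 1388, 1198 and 690.1 CPM at 30 °C and 1948 and 873.2 CPM at 4 °C. Here the groups overlapped: 4 °C 1 was highest of all libraries, and 4 °C 2 lay below 30 °C 1 and 30 °C 2. The log2 fold change of Hba-a2 was 0.17 (SE 0.48, adjusted p = 0.96 from edgeR). It was −0.14 without 30 °C 3 and −0.47 without 4 °C 1, so its direction rests on single libraries.

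**Figure D1:**
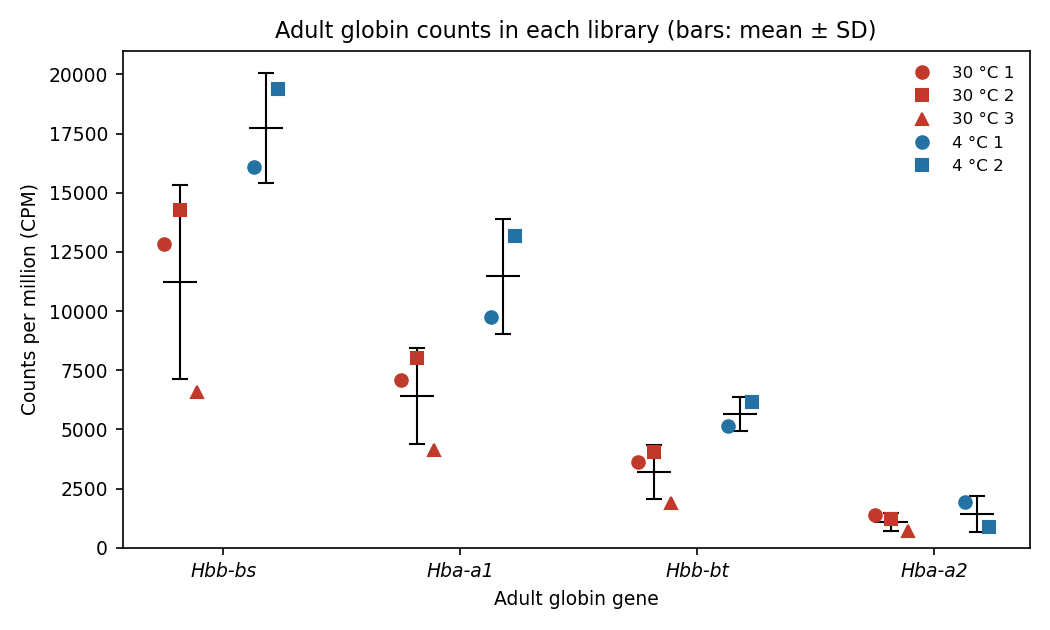
CPM (y axis) of the 4 adult globin genes (x axis) in the 3 libraries at 30 °C (red) and the 2 libraries at 4 °C (blue), with a symbol for each library and black bars for the group mean ± SD. For Hbb-bs, Hba-a1 and Hbb-bt both 4 °C libraries lie above all 30 °C libraries, while the groups overlap for Hba-a2.

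Of the 4 adult globins, 3 had groups that did not overlap in CPM, and this count rested on the scaling. It was 0 when libraries were scaled by TMM, by RLE or by the upper quartile, or when the acinar genes were taken out of the library total (all 4 added after seeing the data, as was the count itself). With TMM scaling 12.2% of all genes tested had groups apart and higher at 4 °C. The library that moved was 30 °C 2. Its adult globin sum was 27571 CPM of the library total and 38006 CPM of the total without acinar genes, above the 32945 of 4 °C 1 and below the 39729 of 4 °C 2 on the latter scale. The ratio of the group means was 1.65 by library total, 1.43 by TMM and 1.43 without acinar genes. Without 30 °C 2, 3 of the 4 genes were apart under each of the 5 scalings. Without 30 °C 3 it was 3 by library total and 0 under each other scaling. Groups separate more easily with fewer libraries. The share of all genes apart was not computed for these sets of libraries, so these counts show no more than the order of values.

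**Figure D2:**
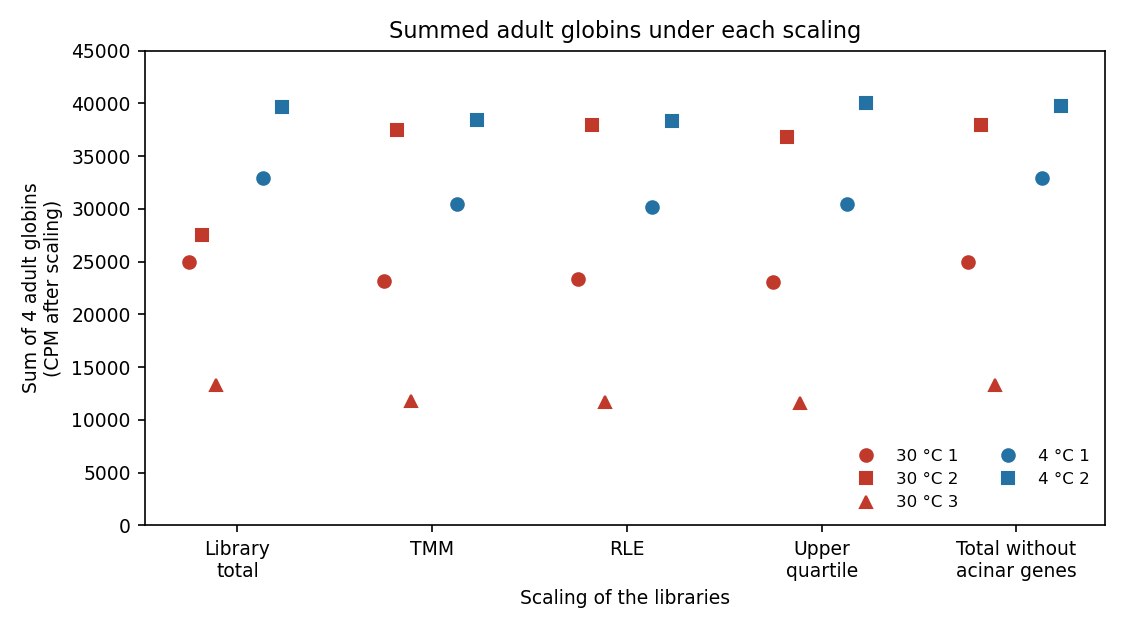
Sum of the 4 adult globins in CPM (y axis) in each library (red, 30 °C, blue, 4 °C) under 5 ways of scaling the libraries (x axis). By library total the 2 libraries at 4 °C are highest, while under the other 4 scalings 30 °C 2 lies between them, for example at 38006 against 32945 and 39729 without acinar genes.

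No member passed the test. Of the 7 members with an entry, 5 passed the filter on low counts, the 4 adult globins and Hbb-bh1, and 0 of these 5 had an adjusted p under 0.05 with edgeR, where the share over all 16133 genes was also 0%. None reached an unadjusted p under 0.05 either, which 2.58% of all genes did upwards and 4.17% downwards. Without 30 °C 2, Hba-a1 (unadjusted p = 0.025 from edgeR) and Hbb-bt (0.030) did, against 1.05% of all genes upwards. Without 30 °C 3, Hbb-bh1 did (0.038), against 3.69%. The counts of Hbb-bh1 left at 30 °C were then 2 and 3, and it passed the filter only through the 4 °C libraries. This p is thus no support for a difference. The DESeq2 Wald test, the test of the study, called 118 genes in all and 0 members. Leaving out single libraries moved the log2 fold changes of the adult globins by more than 1.5 times, taken as log2 values and not as ratios of expression. Without 30 °C 2 the log2 fold change was 1.07 for Hba-a1 (SE 0.35), 1.08 for Hbb-bt (0.37), 0.91 for Hbb-bs (0.38) and 0.46 for Hba-a2 (0.50), all with an adjusted p of 1.00 from edgeR. Without 30 °C 3, the library lowest in globins, it was 0.32 for Hba-a1, 0.27 for Hbb-bt and 0.11 for Hbb-bs. Without 4 °C 2 it was 0.33 for Hba-a1, 0.42 for Hbb-bt and 0.25 for Hbb-bs.

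Divided by the length of the exons (CPM per kb), the adult genes had the same order in all 5 libraries: Hbb-bs, Hba-a1, Hbb-bt, Hba-a2. In CPM per kb, Hbb-bs ran from 8551 to 25258, Hba-a1 from 5111 to 16240, Hbb-bt from 2689 to 8766 and Hba-a2 from 1035 to 2921. Ranges of neighbours in this order overlap between libraries, although the order within a library does not change. Alpha genes gave 33.1%, 32.4% and 35.3% of the adult globin counts per kb in the 30 °C libraries and 34.5% and 34.0% in the 4 °C libraries. The means, 33.6% ± 1.55 (SD, n = 3) and 34.3% ± 0.354 (SD, n = 2), differed by less than the spread at 30 °C. The balance of alpha and beta counts was thus close in all libraries while the total ran from 13298 to 39621 CPM.

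Within the beta pair, Hbb-bt held 22.0%, 22.2% and 22.4% of the beta counts in the 30 °C libraries and 24.2% and 24.1% in the 4 °C libraries. These shares do not overlap, and the gap between the group means, 2.00 percentage points, is larger than the spread within either group (SD 0.174 and 0.0909). The split within a pair, here and for the alpha genes, was not among the planned measures and is given as a description. The 95% Wilson intervals, which cover counting error only, ended at 22.6% in 30 °C 3 and began at 24.0% in 4 °C 2. The gap lay between 1.91 and 2.09 points with each library left out in turn. As a share within 1 pair of genes in 1 library it does not depend on the scaling or on acinar counts, but the counting of shared reads bears on it and was not tested.

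Within the alpha pair, Hba-a2 held 16.4%, 13.0% and 14.3% of the alpha counts in the 30 °C libraries, 16.7% in 4 °C 1 and 6.21% in 4 °C 2. This last library stood apart: its ratio of Hba-a1 to Hba-a2 counts was 15.1, against 5.10, 6.70 and 6.01 at 30 °C and 5.002 in 4 °C 1. The group means were 14.5% ± 1.72 (SD, n = 3) and 11.4% ± 7.39 (SD, n = 2), and the difference turned from −3.11 to 2.12 points without 4 °C 2. The alpha share per kb of 4 °C 2, which sums both copies, lay within the range of the other libraries.

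**Figure D3:**
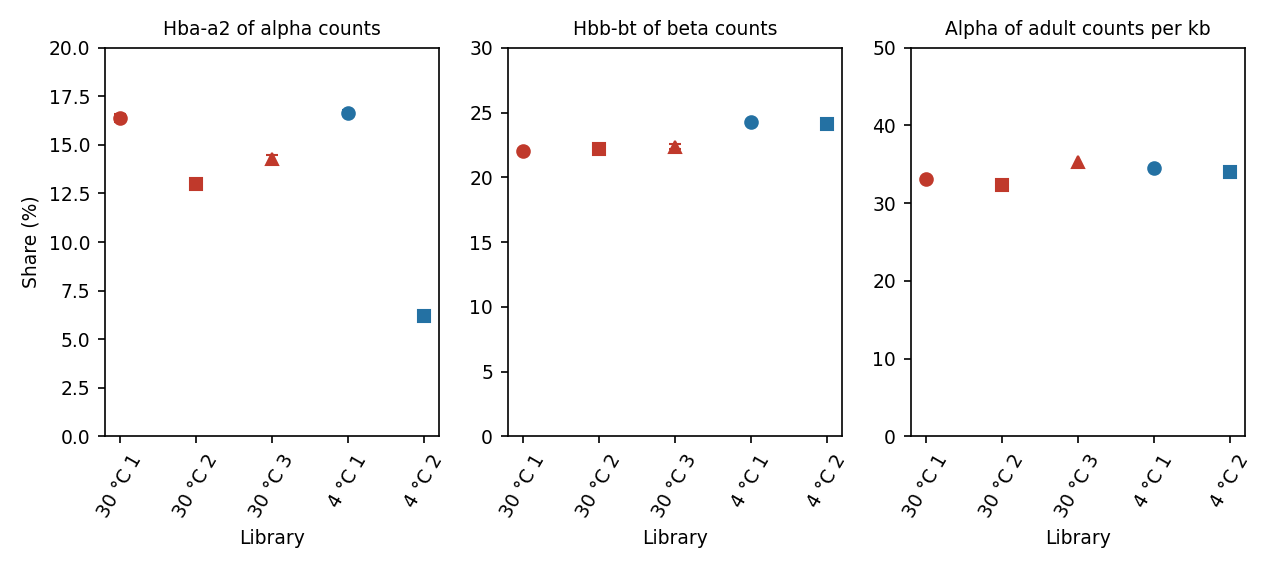
Share in per cent (y axes, each from 0) of Hba-a2 in the alpha counts, of Hbb-bt in the beta counts, and of alpha in the adult globin counts per kb, in each library (x axes). Bars in the left and middle panels are 95% Wilson intervals, mostly smaller than the symbols. Hba-a2 is at 6.21% in 4 °C 2, Hbb-bt is at 24.1% to 24.2% in both 4 °C libraries against 22.0% to 22.4%, and the alpha share lies between 32.4% and 35.3%.

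The embryonic globins were at the limit of detection. A count of 3 or fewer was taken as the floor, which is 0.148 to 0.185 CPM. Hbb-y, the embryonic epsilon-type chain, had 1, 1 and 2 counts in the 30 °C libraries and 0 and 1 in the 4 °C libraries, all at or under the floor. Hba-x, the embryonic zeta-type chain, had 5, 0 and 4 counts at 30 °C and 0 in both libraries at 4 °C, which by the floor of 3 counts allows up to 0.161 and 0.185 CPM. A difference in Hba-x was not detectable at this depth, since neither gene passed the filter and the counts above the floor were 4 and 5.

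Hbb-bh1, a beta-like gene of the embryo, had 2, 3 and 12 counts in the 30 °C libraries and 12 in each library at 4 °C. In CPM these were 0.114, 0.181 and 0.591 against 0.645 and 0.741. The values of the groups did not overlap, but 30 °C 3 and 4 °C 1 had overlapping 95% Wilson intervals (0.338 to 1.03 in 30 °C 3, 0.369 to 1.13 in 4 °C 1). Its fitted log2 fold change was 1.10 (SE 0.69, adjusted p = 0.82 from edgeR), and it was 1.93 without 30 °C 3 and 0.68 without 30 °C 1. Summed and given in parts per 1000000 of the globin counts, the embryonic genes lay at 8.77 to 66.6 at 30 °C and 19.6 to 20.3 at 4 °C. The highest share was that of 30 °C 3, the library with the fewest adult globin counts.

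Of 9 other genes of the globin family listed for comparison, 7 had an entry and 3 were tested. Hbq1b, a theta globin, had 24.9, 20.4 and 10.97 CPM at 30 °C and 14.7 and 18.1 CPM at 4 °C. For this gene edgeR gave a log2 fold change of −0.37 (SE 0.44, adjusted p = 0.89), with overlapping groups. Its copy Hbq1a had 0.744, 1.51 and 1.28 CPM at 30 °C and 4.03 and 2.04 CPM at 4 °C, without overlap in CPM but with overlap after TMM scaling, and a log2 fold change of 1.17 (SE 0.56, adjusted p = 0.76). Cygb, the cytoglobin of fibroblast-like cells, had 9.49, 7.14 and 7.48 CPM at 30 °C and 12.7 and 12.3 CPM at 4 °C (log2 fold change 0.50, SE 0.25, adjusted p = 0.77). Myoglobin (Mb) and neuroglobin (Ngb) had at most 2 counts in any library.

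The other genes of the erythroid programme were lower at 4 °C for the most part, while the adult globins were not. Over all 16133 genes the median log2 fold change was 0.0064, and 7951 of them were lower at 4 °C. Of 17 tested genes of the red cell membrane and its skeleton, 0 were higher and 17 lower at 4 °C, 9 of them at an unadjusted p under 0.05 (4.17% of all genes), with a median log2 fold change of −0.75. In 11 of the 17 the CPM of the groups did not overlap (5.41% of all genes), or in 9 with TMM scaling (11% of all genes). Slc4a1, the anion exchanger band 3, had 2079, 1691 and 1418 CPM at 30 °C and 1243 and 1074 CPM at 4 °C, a log2 fold change of −0.74 (SE 0.28, adjusted p = 0.71 from edgeR). Aqp1, a water channel of red cells and endothelium, had a log2 fold change of −0.75 (SE 0.23, adjusted p = 0.69), and Epb41, which encodes protein band 4.1 of the membrane skeleton, one of −0.42 (SE 0.37, adjusted p = 0.86). As with the globins, 0 genes of this list had an adjusted p under 0.05 with edgeR, against 5 with DESeq2, which called 92 of all 16133 genes lower. The number at an unadjusted p under 0.05 was 7 without 30 °C 2 (2.2% of all genes) and 15 without 30 °C 3 (5.66%). It was 14 with no filter on low counts (2.99%). All 17 were lower in each of these fits and without 4 °C 1.

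Of 14 tested regulators of erythroid genes, 12 were lower at 4 °C, 6 of them at an unadjusted p under 0.05 (4.17% of all genes). The median log2 fold change was −0.55. The most abundant were Eif2ak1, the haem-regulated kinase that couples globin translation to haem supply, with −0.48 (SE 0.22, adjusted p = 0.76 from edgeR), Lmo2, a bridging subunit of the GATA1 and TAL1 complex, with −0.22 (0.19, adjusted p = 0.86), and Zfpm1, the GATA1 partner FOG1, with −0.62 (0.24, adjusted p = 0.71). The number at an unadjusted p under 0.05 was 4 with upper-quartile scaling (3.53% of all genes), 3 without 30 °C 1 (3.61%) and 2 without 30 °C 2 (2.2%). In each of these fits and without 4 °C 1, 12 were lower. With edgeR 0 regulators had an adjusted p under 0.05, and with DESeq2 1 had (92 of all 16133 genes called lower). Klf1 and Gata1, taken up after their values were seen because the promoter motifs above belong to their factors, had log2 fold changes of −0.48 (SE 0.32) and −0.74 (SE 0.32), with adjusted p of 0.83 and 0.74 from edgeR.

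All 9 enzymes of haem synthesis were tested, of which 8 were lower at 4 °C, with a median log2 fold change of −0.47. Of these, 1 had an unadjusted p under 0.05 (4.17% of all genes). The exception was Alas2, the erythroid enzyme of the first step, at 1136, 1113 and 558.8 CPM at 30 °C and 1189 and 983.5 CPM at 4 °C. Its log2 fold change of 0.0082 (SE 0.44, adjusted p = 1.00 from edgeR) was close to 0. All 9 enzymes were lower with DESeq2, with RLE scaling, with a minimum of 10 counts in every library, without 30 °C 3 and without 4 °C 1, so the sign of Alas2 is not fixed by these data. The number of enzymes at an unadjusted p under 0.05 was 6 without 30 °C 3 (5.66% of all genes) and 2 with DESeq2 (5.33%). With DESeq2, 1 enzyme had an adjusted p under 0.05, and 92 of all 16133 genes were called lower. Like the adult globins, Alas2 was lowest in 30 °C 3. Fech, which inserts iron into protoporphyrin to give haem, had a log2 fold change of −0.30 (SE 0.30, adjusted p = 0.87).

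Of 10 tested genes of iron supply, 9 were lower at 4 °C, 3 of them at an unadjusted p under 0.05 (4.17% of all genes, median −0.38). Its most abundant members were the ferritin genes Fth1 (log2 fold change −0.06) and Ftl1 (0.23), which most cell types use, and Slc25a37, the mitochondrial iron importer mitoferrin (−0.42). Of 15 genes of the late erythroid cytoplasm, 13 were lower (11 with upper-quartile scaling), 1 at an unadjusted p under 0.05 (median −0.38), which is near the 4.17% of all genes. They include the carbonic anhydrase Car2 (log2 fold change −0.55), the peroxiredoxin Prdx2 (−0.24) and the ubiquitin ligase Mkrn1 (−0.04). Of 11 genes of the erythropoietin pathway, 11 were lower (median −0.40), among them Pim1 (−0.66), Bcl2l1 (−0.25) and Jak2 (−0.24). Of these 11, 2 had an unadjusted p under 0.05 (4.17% of all genes). Of 10 genes of haemoglobin and haem clearance, 8 were lower and 0 had an unadjusted p under 0.05 (median −0.18), with haem oxygenase Hmox1 at −0.21, the iron exporter Slc40a1 at 0.04 and Lrp1, the receptor for haem bound to haemopexin, at −0.35. None of the genes in these 4 lists had an adjusted p under 0.05 with edgeR. With DESeq2 1 gene of iron supply had, where 92 of all 16133 genes were called lower. Single libraries moved these counts. Without 4 °C 1 the number lower was 7 of 10 for iron supply and 4 of 10 for clearance, without 30 °C 1 it was 5 of 10 for clearance, and without 30 °C 2 it was 10 of 15 for the late cytoplasm. Without 30 °C 3, an unadjusted p under 0.05 was reached by 5 genes of iron supply, 4 of the late cytoplasm and 4 of the erythropoietin pathway. The share over all genes was then 5.66%.

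**Figure D4:**
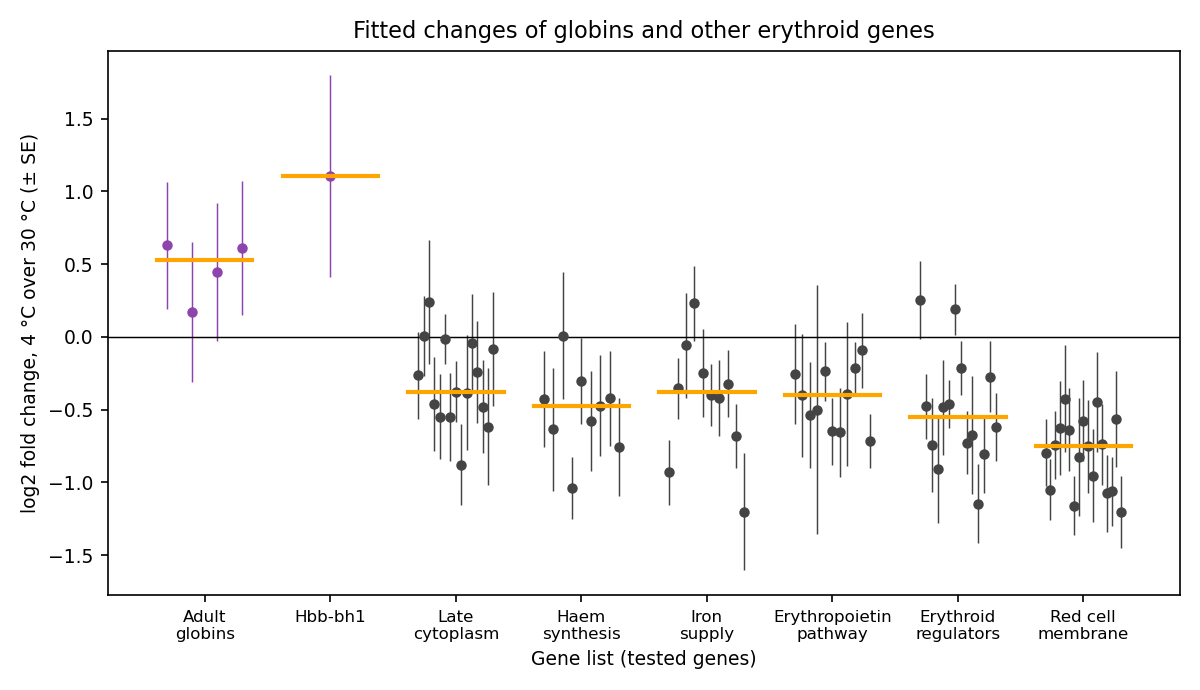
Fitted log2 fold change of 4 °C over 30 °C (y axis, points, with bars of ± 1 SE) for each tested gene of the globin groups (purple) and of 6 other erythroid lists (grey), with the median of each list in orange. The adult globins lie above 0 (0.17 to 0.63) and all 17 membrane genes below it, with a median of −0.75.

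A ratio of counts within a library depends neither on its scaling nor on its acinar share. The adult globins were therefore divided by the summed counts of each erythroid list, a measure added after seeing the data and given as a description. Per count of the membrane list there were 3.83, 5.24 and 2.88 adult globin counts in the 30 °C libraries and 8.84 and 11.3 in the 4 °C libraries. The group means, 3.98 ± 1.19 (SD, n = 3) and 10.1 ± 1.73 (SD, n = 2), stood 2.53-fold apart, and the groups did not overlap. With each library left out in turn this fold lay between 2.22 and 3.00, and it was 2.48 with the beta globins alone. Against haem synthesis the ratios were 7.31, 9.88 and 6.59 at 30 °C and 13.6 and 16.1 at 4 °C, and against the regulators 11.5, 19.1 and 7.51 and then 23.1 and 26.7. Both were higher in each 4 °C library than in any library at 30 °C, with folds of 1.88 and 1.96. The fold was 1.81 for the late cytoplasm and 1.91 for the erythropoietin pathway, also without overlap. All these ratios share the adult globin sum, so they are not separate observations. The late cytoplasm sum itself overlapped, with 5745, 4669 and 3823 CPM at 30 °C and 4100 and 4656 CPM at 4 °C. So did the sums of haem synthesis, the regulators and the erythropoietin pathway. For haem synthesis they were 3411, 2791 and 2017 CPM at 30 °C and 2420 and 2458 CPM at 4 °C. Only the membrane sum was apart, with 6514, 5262 and 4619 CPM at 30 °C and 3728 and 3510 CPM at 4 °C. Ratios to other gene sets were not examined. For iron supply, where the ferritins make up most counts, the fold was 1.55 and the groups overlapped, as 30 °C 2 (6.77) lay above 4 °C 2 (5.81).

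**Figure D5:**
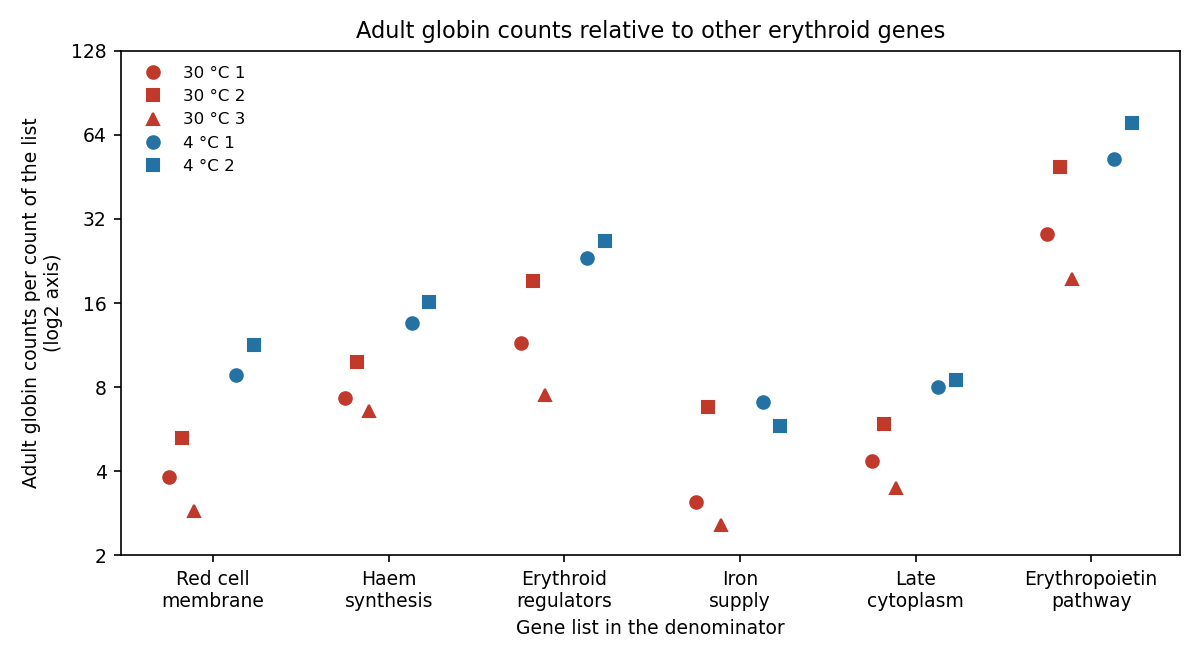
Adult globin counts per count of 6 erythroid gene lists (y axis, log2 axis) in each library (red, 30 °C, blue, 4 °C). Both 4 °C libraries lie above all 30 °C libraries for 5 of the lists, for example at 8.84 and 11.3 against 2.88 to 5.24 for the membrane list, and the groups overlap for iron supply.

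Marker genes of other cell types varied between the libraries as well, and 0 of them had an adjusted p under 0.05 with edgeR. The summed CPM of 11 neutrophil genes ran from 3494 to 14924 at 30 °C and from 2828 to 4412 at 4 °C, and all 11 had negative log2 fold changes (median −1.37). B cell genes (11 genes) summed to 1428 to 4029 CPM at 30 °C and 3463 to 4348 at 4 °C, and T cell genes (10 genes) to 287.7 to 584.6 and 792.8 to 827.7, all with positive log2 fold changes. At an unadjusted p under 0.05 stood 2 of the 11 neutrophil genes (4.17% of all genes downwards), 2 of the 11 B cell genes and 8 of the 10 T cell genes (2.58% upwards). These counts rested on single libraries for neutrophils, with 11 without 30 °C 3 (5.66% of all genes downwards), 1 without 30 °C 1 (3.61%) and 1 without 30 °C 2 (2.2%). For B cells it was 8 without 30 °C 3 (3.69% of all genes upwards), 0 without 30 °C 1 (2.16%) and 0 without 30 °C 2 (1.05%). For T cells it was 7 to 10 in these fits. DESeq2 gave 7 of the 10 T cell genes an adjusted p under 0.05, against 0.161% of all genes upwards. On simulated counts it made a larger share of false calls than the threshold names. The 7 genes of splenic mesenchyme summed to 74.0 to 141 CPM and 160 to 179 CPM. Of these, 4 were higher at 4 °C at an unadjusted p under 0.05 (2.58% of all genes), or 2 without 30 °C 2 (1.05%). The 8 genes of megakaryocytes and platelets (371.8 to 421.6 and 380.7 to 463.1 CPM) and the 8 of red pulp macrophages (1405 to 2517 and 2325 to 3027 CPM) overlapped between the groups. Every gene of these 6 lists was above 3 counts in every library. Their part in the globin values was not tested.

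The genes whose pattern over the 5 libraries was most like that of the summed adult globins were found by the root mean square difference between centred log2 CPM values (TMM-scaled, prior count 2). The sum itself spanned 1.70 on this scale. The nearest were Tpd52-ps (0.19), Asap3 (0.20), Gm43587 (0.21), Gm48194 (0.22) and Irs3 (0.22), all between 0.197 and 3.06 CPM in every library, where counting error is large. The nearest gene of more than 100 CPM, picked out after its value was seen, was Bpgm at rank 11 (0.25), a red cell enzyme that makes the effector lowering the oxygen affinity of haemoglobin. Bpgm had 391.4, 447.4 and 234.6 CPM at 30 °C and 554.2 and 427.4 CPM at 4 °C, with overlapping groups and a log2 fold change of 0.24 (SE 0.43, adjusted p = 0.93 from edgeR). With only 5 libraries no p is attached to this likeness.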

How the data were processed

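RNA-seq libraries labelled as tumours, 3 at 30 °C and 2 at 4 °C, were analysed. The authors summarized aligned reads with featureCounts on Gencode vM19, and the deposited values are raw counts per gene symbol. The submitters' processing notes list fastp, HISAT, RSEM and GRCm38. Strand setting and treatment of multi-mapping reads are not given in the sources used here. Entries without a name (0.0101% to 0.0170% of counts) were left out, and of repeated symbols the most abundant entry was kept.

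With edgeR 4.0.16 under R 4.3.3, low counts were removed by filterByExpr, and libraries were scaled by TMM and compared with the robust quasi-likelihood test, with Benjamini-Hochberg adjustment over 16133 genes and a threshold of 0.05. DESeq2 1.42.0 was an alternative. The methods were tested on simulated counts, where both tools made a larger share of false calls than the threshold names, DESeq2 more than edgeR. Lengths come from GENCODE M21 (GRCm38), promoters from RefSeq (GRCm38.p6), where 6 of 8 symbols matched. Wilson intervals are at 95%.

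Members and lists were chosen with earlier results of these data known. Named genes are the members, the 3 most abundant tested genes of each erythroid list and the 5 genes most like the summed adult globins. A gene that this rule names is not reported here.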

Additional observations from a re-analysis of the deposited data

How the results depend on the processing

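The log2 fold changes of Hbb-bs, Hbb-bt, Hba-a1 and Hbb-bh1 were positive, and none of the members was past the threshold, under every alternative that gave a value. The Wald test gave Hbb-bh1 no adjusted p. The value of Hba-a2 turned negative without 30 °C replicate 3 and without 4 °C replicate 1 (−0.47 to 0.60 over 5 fits, each without 1 library). Fits with 1 library left at 4 °C assume that it varies like the libraries at 30 °C. The share of Hba-a2 in the alpha counts, −3.11 percentage points at 4 °C, ran from −8.33 to 2.12 points with each library left out. The ratio of summed adult globins, 1.65, was 1.38 to 1.90 with each library left out, and 1.41 to 1.68 with other scalings, other denominators or group medians. The alpha share per kb, 33.9% over the 5 libraries, became 35.8% with coding lengths. The count of 3 adult globins with groups apart became 0 with TMM, 0 with RLE, 0 with upper-quartile scaling and 0 without acinar genes in the total, where 30 °C replicate 2 moved up.

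Over all genes the count of calls, 0, became 118 with the Wald test and 44 with the replicate block. The cause of the change in these counts was not tested. With the replicate block, Hba-a2 had a log2 fold change of −0.23 and no member was past the threshold. The labels do not say that the numbers pair libraries. Deviations of same-numbered libraries correlated at −0.25 (replicate 1) and 0.26 (replicate 2) over 16133 genes, but with 2 libraries at 4 °C their deviations mirror each other, so these values cannot show whether the numbers pair. Depth limits the embryonic globins, where the floor of 3 counts lies near their values.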
